A study of Mus musculus with 135 samples.

Results

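Haematopoietic stem cells (HSCs) of an old mouse were divided by how many platelet genes each cell expressed. The score of a cell is its number of expressed genes among *Clu*, *Selp*, *Sdpr*, *Itgb3*, *Fhl1* and *Tgm2*, a set of 6 that the study named because they were higher in old than in young cells. Cells with a score of 4 or more are called primed, and cells with 3 or fewer are called other. Of the 62 old cells compared, 37 were primed and 25 were other, among 135 cells in the whole series. The classes were chosen by the counts of these 6 genes in each cell, so the values of the 6 are given as a description, and every gene outside the score was then set side by side between the classes. The score shares its cells, its libraries and its depth with these genes, so a difference between the classes is a description of 62 cells and not a test.

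All cells were sorted from bone marrow of C57BL/6 mice that carry a Vwf-eGFP reporter, in which a fluorescent protein marks cells that express *Vwf*. The sort kept live cells with the phenotype 7AAD-Lin-Sca-1+c-Kit+CD150+CD48-, the same for both ages. The old mouse was 20 to 25 months of age and gave 74 cells, and the young mouse was 2 to 3 months of age and gave 61. There was 1 mouse and 1 capture run per age, so cells of an age are not replicates, no p-value was computed, and whether another old mouse would give the same classes was not tested.

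Platelets are shed by megakaryocytes, large marrow cells that descend from HSCs. Some HSCs already carry transcripts of the megakaryocyte and platelet programme, such as adhesion receptors and granule proteins, and transplanted HSCs of this kind are known to yield many platelets. Such platelet-primed HSCs are known to stand high among HSCs and to give rise also to HSCs without the bias.

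Read counts were converted to CPM, the number per 1000000 of all reads counted in a cell. A level is log2(CPM + 1) averaged over a class of cells, and a gene counts as expressed in a cell with log2(CPM + 1) above 2. A difference is the level in primed cells minus the level in other cells. Gene positions were taken from RefSeq on the GRCm38 (mm10) build. Intervals are 95% exact Clopper-Pearson intervals for shares and 95% exact Poisson intervals for summed counts. Both cover counting error only, since the reads carry no molecular identifiers.

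The score spread widely within the old mouse. Scores from 0 to 6 were held by 1, 1, 11, 12, 17, 16 and 4 cells, with 59.7% of cells at 4 or more (interval 46.4 to 71.9). The largest class, at a score of 4, lay next to the boundary, and 29 cells in all had a score of 3 or 4. In the 52 young cells that pass the study's limits the scores from 0 to 4 were held by 21, 15, 11, 3 and 2 cells, and 0 of 52 reached 5 (interval 0 to 6.85). Only 2 young cells (3.85%, interval 0.469 to 13.2) were therefore primed by the same rule. This difference between the ages repeats the choice of the 6 genes and is not independent evidence of it.

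**Figure D1:**
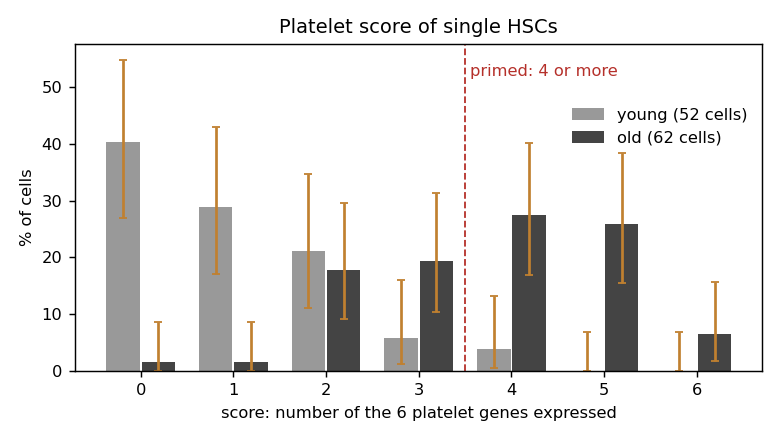
Share of cells (%) at each platelet score, the number of the 6 platelet genes expressed, in 52 young and 62 old HSCs. Bars are shares, lines are 95% exact Clopper-Pearson intervals and the dashed line is the limit of 4; old cells peak at a score of 4 and young cells at 0.

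The classes had no gap between them. Of the 372 values of the 6 genes in old cells, 56 lay within 1 of the limit for an expressing cell and 65 had no read. *Sdpr*, which encodes a caveolar membrane protein, was expressed in 12 of 12 cells at a score of 3 and in 15 of 17 at a score of 4, so it did not separate the cells next to the boundary. *Tgm2*, a protein-crosslinking transglutaminase, was expressed in 6 of 12 cells at 3 and 14 of 17 at 4, and *Itgb3*, the beta chain of the platelet fibrinogen receptor, in 4 of 12 and 13 of 17. With *Sdpr* left out of the score and the limit at 3 of 5 genes, the classes were the same 37 and 25 cells. This follows from its expression in every cell at a score of 3.

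The genes of the score differed in how far they set the classes apart. *Tgm2* (chromosome 2, 158116405 to 158146392) was expressed in 33 of 37 primed and 9 of 25 other cells, with mean levels of 6.05 and 2.24. *Itgb3* (chromosome 11, 104608000 to 104670476) was expressed in 31 and 9 cells at 5.50 and 2.44. For *Clu* (chromosome 14, 65968483 to 65981548), a secreted chaperone that platelets carry in their granules, 18 primed and 4 other cells were above the limit and the levels were 3.83 and 1.61. These 3 genes had the largest differences of the 6, at 3.81, 3.06 and 2.22.

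*Selp* (chromosome 1, 164115264 to 164150026), the adhesion receptor P-selectin, was expressed in 30 primed and 12 other cells at mean levels of 5.91 and 3.96. *Sdpr* (chromosome 1, 51289126 to 51302960) was found in 34 and 17 cells at 7.18 and 5.37. *Fhl1* (chromosome X, 56731209 to 56793346), a LIM-domain protein, was found in 26 and 8 cells at 4.18 and 2.64. Among expressing cells the median of *Selp* was 7.48 in primed and 7.49 in other cells, so for this gene the classes differed in how many cells expressed it and hardly in the level of those that did. The ratio of mean CPM, primed over other, was 6.25 for *Tgm2* but 1.15 for *Clu*, where 1 of the other cells held 63.3% of the CPM of its class.

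**Figure D2:**
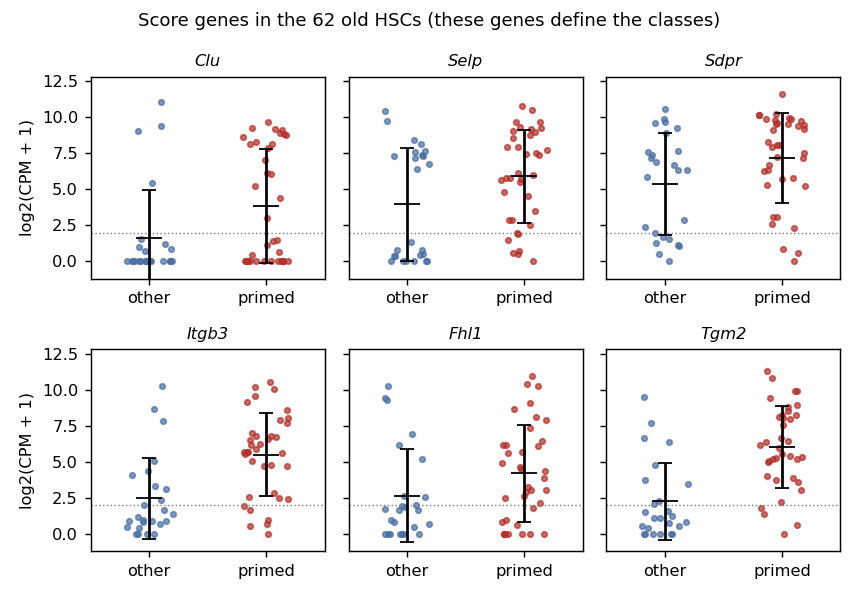
Levels, log2(CPM + 1), of the 6 score genes in 25 other and 37 primed old HSCs. Points are cells, horizontal bars are means, vertical bars are SD over cells and the dotted line is the limit of 2 for an expressing cell; every gene has cells above the limit in both classes.

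The transcripts of the sorted antigens were found unevenly. *Kit*, the stem cell factor receptor used in the sort, was expressed in 37 of 37 primed and 24 of 25 other cells, with a difference of -0.02. *Ptprc*, the leukocyte antigen CD45, was expressed in 31 and 19 cells. *Slamf1*, which encodes the sorted antigen CD150, was above the limit in only 9 and 6 cells, and *Ly6a*, which encodes Sca-1, in 29 and 14. *Cd48*, the antigen sorted against, had reads in 0 of 62 cells. By the approximate rule of 3 over the number of cells (3 of 62), and not the exact interval, this bounds cells with a read at up to 4.84%. It says nothing of cells whose transcript was missed. Lineage genes were partly present. At least 1 gene of the erythroid list and of the granulocyte and macrophage list was expressed in 37 primed and 25 other cells, and at least 1 of the lymphoid list in 36 and 25. *Prtn3*, a granule protease of granulocyte progenitors, was expressed in 36 and 23 cells, while *Cebpa*, *Il7r* and *Klf1* were above the limit in 0 of 62.

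The classes differed in depth. Between 276316 and 3703939 reads were counted on genes in the primed cells, with a median of 1855156, and between 949874 and 4086659 in the other cells, with a median of 2411562. The number of genes expressed had a median of 4066 in primed cells (2964 to 6267) and 3837 in other cells (2967 to 5583). Primed cells thus had the lower median of reads and the higher median of genes expressed. After each cell was thinned to 250000 reads the medians of genes expressed were 4365 and 4053. The limit for an expressing cell is set on CPM, so a shallow cell passes it on fewer reads than a deep one. H6, with 409344 reads, was primed on *Sdpr* and *Tgm2* at 3.06 and *Selp* and *Itgb3* at 2.56, close to the limit of 2. Across the 62 cells, which share 1 mouse, the score had a Pearson r of -0.35 with the total count (Spearman rho -0.36). With the number of genes expressed it had 0.32 (rho 0.29). The classes also followed the well labels. Every compared cell whose label begins with A (A1, A4, A5, A6, A7, A10, A11 and A12) was primed, while each other letter held both classes. All of these but A5 (2238300 reads) had between 276316 and 1061299 reads. The part of well position in the differences was not tested. Values within strata, after thinning or in the deeper cells are given beside the differences that follow, and the part of depth in the others was not tested.

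**Figure D3:**
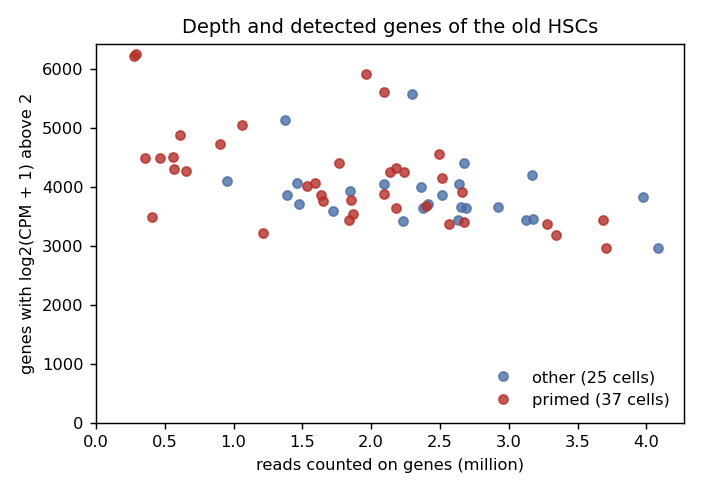
Genes expressed per cell against reads counted on genes (axis in units of 1000000) for 37 primed and 25 other old HSCs. Each point is a cell; primed cells make up all but 1 of the cells under 1000000 reads and all but 4 of the 21 cells with the most genes expressed.

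Some cells carried transcripts of both sex chromosomes. *Xist* was expressed in 4 of 37 primed and 4 of 25 other cells, and all 8 also expressed a Y-linked gene. The *Xist* values of these 8 cells lay between 2.13 and 3.69, not far above the limit of 2. The labels do not give the sex of the mouse, and whether these sites held more than 1 cell was not tested. Without these cells the *Vwf* difference was 3.8. Any of the Y chromosome genes examined (*Eif2s3y*, *Ddx3y*, *Uty* or *Kdm5d*) was expressed in 36 primed and 22 other cells. At least 1 of the cycle genes *Ccna2*, *Ccnb1*, *Cdk1* and *Cdc25c* was expressed in 6 of 37 primed and 7 of 25 other cells. No pair of old cells had a Pearson correlation of log2(CPM + 1) above 0.561, so none looked like the same library counted again. Cells were imaged by the study to keep capture sites with 1 cell, and no doublet caller was run.

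The comparison outside the score covered the 9064 genes that 10% or more of the 62 cells expressed. This filter was set over both classes together, so a gene could enter through a single class where it was high. A gene is called higher or lower in primed cells where the difference was 1 or more in size, which is a factor of 2 in the geometric mean of CPM + 1. By that measure 872 genes (9.62%) were higher and 500 (5.52%) were lower in primed cells, 15.1% together. The median difference over all genes was 0.07, its quartiles were -0.33 and 0.50, and 54.8% of genes lay above 0. This split moved with the scaling. With TMMwsp factors 7.58% of genes were higher and 7.60% lower, with poscounts factors 6.86% and 8.57%, and the median of all genes was 0.00 and -0.10. Within 3 strata of the cells by number of genes expressed the shares were 7.46% and 10.9%.

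*Vwf* (chromosome 6, 125552948 to 125686679), which encodes the von Willebrand factor that tethers platelets to injured vessel walls and which is not in the score, had the largest difference of all 9064 genes, 3.68. In primed cells its lowest, median and highest values of log2(CPM + 1) were 0.00, 7.98 and 11.08, with a mean of 6.12 (SD 3.46 over 37 cells). In other cells they were 0.00, 0.62 and 8.82, with a mean of 2.43 (SD 3.05 over 25 cells). Most primed cells lay high and most other cells near 0, with overlap at both ends.

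*Vwf* was expressed in 29 of 37 primed cells (78.4%, interval 61.8 to 90.2) and 8 of 25 other cells (32%, interval 14.9 to 53.5). Its reads summed to 21095 (20811 to 21382) in primed and 3432 in other cells. These sums are over classes of unequal size and depth, and the interval does not measure the spread between cells. The ratio of mean CPM was 5.67. Without the cell that moved it most the difference was 3.95.

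*Vwf* changed along the score between 3 and 4 more than below 3. It was expressed in 4 of 13 old cells with a score of 0 to 2 (mean level 2.44), 4 of 12 at a score of 3 (2.42), 12 of 17 at 4 (5.20) and 17 of 20 at 5 or 6 (6.90). Read the other way, the 37 old cells that expressed *Vwf* had a mean score of 4.16 (SD 1.14) and the 25 that did not had 3.08 (SD 1.35). Of the cells that expressed *Vwf*, 8 were not primed by the score, and of those that did not, 8 were.

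The *Vwf* difference was as large within strata of the cells. In 3 strata of the old cells by number of genes expressed, from fewest to most, the *Vwf* level was 6.32, 6.81 and 5.62 in primed and 2.66, 2.55 and 1.58 in other cells. The last stratum held 17 primed and only 4 other cells, so its values for other cells rest on few. Among the 27 primed and 24 other cells with at least 1000000 reads the difference was 4.22.

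*Itga6* (chromosome 2, 71786886 to 71858427), the alpha-6 integrin chain of the laminin receptor of platelets and stem cells, came next with a difference of 3.31. Its lowest, median and highest values were 0.47, 7.68 and 11.29 in primed and 0.00, 3.53 and 9.78 in other cells, and it was expressed in 34 (91.9%, interval 78.1 to 98.3) and 14 cells (56%, interval 34.9 to 75.6). Other cells thus fell into some without the transcript and some with as much as primed cells. *Itga6* followed the score in steps, with mean levels of 2.98 at a score of 0 to 2, 5.12 at 3, 7.02 at 4 and 7.58 at 5 or 6. In the same 3 strata it was 7.77, 7.55 and 6.90 in primed and 5.37, 3.00 and 3.96 in other cells.

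**Figure D4:**
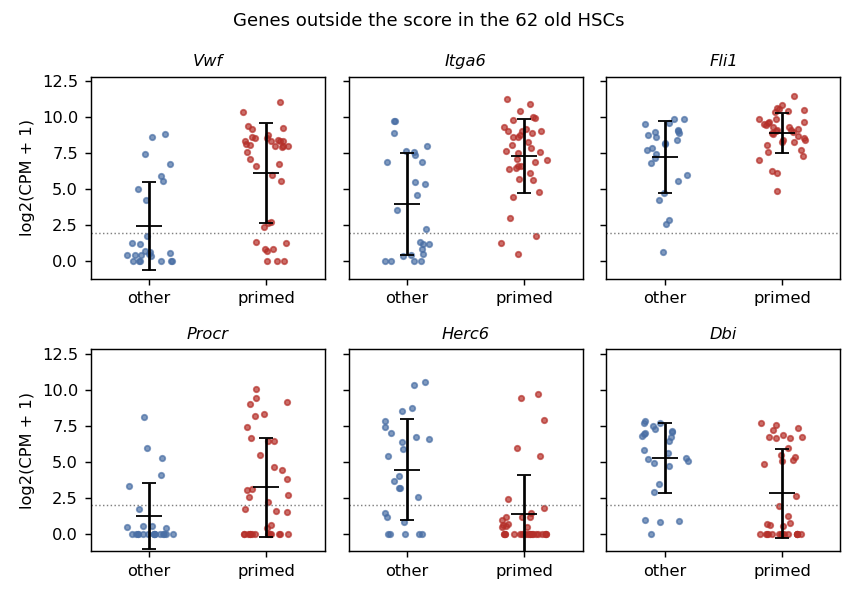
Levels, log2(CPM + 1), of *Vwf*, *Itga6*, *Fli1*, *Procr*, *Herc6* and *Dbi*, none of them in the score, in 25 other and 37 primed old HSCs. Points are cells, horizontal bars are means, vertical bars are SD over cells and the dotted line is the limit of 2 for an expressing cell; the first 4 genes lie higher in primed cells and the last pair lower, with overlap in each.

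Besides *Vwf* and *Itga6*, 13 genes make up the 15 with the largest differences. Some of them encode proteins that act on chromatin. Whether genes of this or another function are more frequent among the 15 than among all genes was not tested. *Ino80* (chromosome 2, 119373042 to 119478685), the motor of a nucleosome remodelling complex, was expressed in 23 primed cells (62.2%, interval 44.8 to 77.5) and 2 other cells (8%, interval 0.984 to 26), with a difference of 2.79. *Rbbp7*, a histone-binding subunit of several chromatin complexes, had a difference of 2.71, and *Kdm5a*, a histone demethylase, had 2.60. *Rbbp7* was at 0.88 with the boundary at a score of 3, and *Kdm5a* at 0.87 by the ratio of mean CPM. *Hcfc1r1*, which binds the transcriptional co-regulator HCF-1, had 2.88 and was expressed in 25 and 6 cells.

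Other genes among the 15 belong to lipid handling and metabolism. *Apoe* (chromosome 7, 19696244 to 19701310), an apolipoprotein, was expressed in 35 primed and 18 other cells at mean levels of 7.18 and 4.56. The phospholipid scramblase gene *Plscr4* and the ether lipid gene *Far1* both had a difference of 2.58. *Gda*, a guanine deaminase, and *Suclg2*, a citric acid cycle ligase subunit, both had 2.53. *Far1* was at 0.07 after thinning to 250000 reads, *Suclg2* at 0.19 with the boundary at a score of 5, and *Apoe* at 0.79 without *Clu* in the score.

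*Abcg2* (chromosome 6, 58584491 to 58692451), the efflux pump that lets stem cells exclude Hoechst dye, was expressed in 24 primed and 7 other cells, with a difference of 2.50. The kinase *Map3k12*, with the same difference, was expressed in 17 and 4 cells, and was at 0.05 with the boundary at a score of 5. *0610011F06Rik* had 2.69. *Btg2*, an antiproliferative immediate-early gene, closed the 15 at 2.47 with 32 and 14 expressing cells, but its ratio of mean CPM was 1.06, and among expressing cells its median was 10.27 in primed and 10.84 in other cells. For 7 of the 15 genes the intervals of the share of expressing cells did not overlap: *Vwf*, *Itga6*, *Hcfc1r1*, *Ino80*, *0610011F06Rik*, *Plscr4* and *Suclg2*. Over all 9064 genes this held for 32 (0.353%) in this direction, and the 15 were picked by the difference between the same cells, so nothing is read from the count.

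At the other end, *Herc6* (chromosome 6, 57580992 to 57665136), an interferon-induced ubiquitin ligase, had the most negative difference, -3.07. Its lowest, median and highest values were 0.00, 0.00 and 9.69 in primed and 0.00, 4.02 and 10.54 in other cells. It was expressed in 6 primed cells (16.2%, interval 6.19 to 32) and 17 other cells (68%, interval 46.5 to 85.1). Along the score it was expressed in 9 of 13 cells at 0 to 2, 8 of 12 at 3, 2 of 17 at 4 and 4 of 20 at 5 or 6. Its step thus fell at the same boundary as that of *Vwf*, which is the boundary the classes were built on.

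*Dbi* (chromosome 1, 120113280 to 120121096), an acyl-CoA binding protein, was expressed in 16 primed and 21 other cells, with medians of 0.72 and 5.78 and a difference of -2.46. *Cpsf2*, which takes part in cleavage of messenger RNA ends, had -2.87 with 12 and 16 expressing cells, and *Lrif1*, a nuclear receptor interacting factor, -2.77 with 7 and 15. The remaining genes of the lowest 15 included *Phip*, *Vps39*, *Fam212a*, *Med28*, *Sec22b*, *Ctr9*, *Ccdc28a*, *Tubg1*, *Ndufb8* and *Ahcyl1*, with differences between -2.68 and -2.15. They include a Mediator subunit (*Med28*), vesicle transport proteins (*Sec22b* and *Vps39*) and gamma-tubulin (*Tubg1*). With the boundary at a score of 5, *Dbi* was at -0.37, *Phip* -0.40, *Ahcyl1* -0.32, *Fam212a* -0.20, *Med28* -0.15 and *Ndufb8* -0.57. At that boundary *Cpsf2* was at -1.86, *Herc6* at -1.77 and *Lrif1* at -1.15. For 3 of the 15, *Herc6*, *Lrif1* and *Dbi*, the intervals of the share of expressing cells did not overlap, as for 6 (0.0662%) of all 9064 genes in this direction, and again these genes were picked by their difference. With 9064 genes ordered by size, the ends of the order hold the values most favoured by the spread between single cells, and no replicate mouse was there to set against them.

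Megakaryocyte and platelet genes outside the score were examined as 4 lists. Of their 78 members 72 were in the table and 51 could be compared, and 16 of these (31.4%) were higher in primed cells and 3 (5.88%) lower, beside 9.62% and 5.52% of all genes. Their median difference was 0.18, against 0.07 over all genes, and with poscounts factors it was -0.02. Within the 3 strata by genes expressed 8 members were higher, beside 7.46% of all genes. By the ratio of mean CPM 8 of the 51 were also higher, but beside 20.5% of all genes. In the main setting the higher members were thus more frequent than among all genes, while the list as a whole stood close to them. By the ratio of mean CPM they were not more frequent.

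Among platelet receptors and adhesion molecules, 5 of 11 members (45.5%) were higher and 1 (9.09%) was lower, beside 9.62% and 5.52% of all genes. Their median was 0.68, and -0.24 after thinning. *Itga6* led them, followed by the thrombin receptors *F2rl3* (1.32, 17 and 6 expressing cells) and *F2r* (1.12, 20 and 9), the junction molecule *Esam* (1.13, 16 and 9) and *Gp9* (1.08, 18 and 6), a subunit of the receptor for von Willebrand factor. *Itgb1*, the common beta-1 integrin chain, was lower at -1.56, but at 0.38 with the boundary at a score of 3. *Itga2b*, the alpha chain that pairs with *Itgb3* in the fibrinogen receptor, had 0.10, with 12 and 5 expressing cells. *Itgb3* is in the score, so its own difference cannot be set against this value. After thinning *F2rl3* was at -0.37 and *Gp9* at -0.31, below 0.

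Granule and secreted proteins of platelets held *Vwf* but no other gene past the limit. Only 6 of their 18 members could be compared, 1 of them higher (16.7%, beside 9.62% of all genes), with a median of -0.29. *Pf4*, the platelet chemokine, was expressed in 8 primed and 3 other cells with a difference of 0.91, and 1 primed cell held 64% of the CPM of its class. The granule proteoglycan gene *Srgn* had -0.53. *Angpt1*, an HSC and megakaryocyte growth factor, had -0.33 and was expressed in all 62 cells.

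Of 17 cytoskeleton and signalling genes, 4 (23.5%) were higher and 1 (5.88%) lower, beside 9.62% and 5.52% of all genes, with a median of -0.01. The integrin activator *Tln1* had 1.44, the myosin kinase *Mylk* 1.35, the phospholipase *Pla2g4a* 1.30 and vinculin (*Vcl*) 1.10. Thromboxane synthase, *Tbxas1*, was lower at -1.42. With the boundary at a score of 3, *Tln1* was at -0.86, *Pla2g4a* at -0.66 and *Tbxas1* at 0.45, each with its direction turned, and by the ratio of mean CPM *Mylk* was at -0.45.

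Transcription factors of the megakaryocyte line included 6 higher (35.3%) and 1 lower (5.88%) of 17, with a median of 0.36. The shares over all genes were 9.62% and 5.52%. *Fli1* (chromosome 9, 32422204 to 32543432), an ETS factor that drives megakaryocyte genes, was expressed in 37 of 37 primed and 24 of 25 other cells, so here the classes differed in level. Its lowest, median and highest values were 4.86, 9.11 and 11.47 in primed and 0.62, 8.16 and 9.92 in other cells, a difference of 1.69. In the same 3 strata its level was 8.72, 9.18 and 8.93 in primed and 7.15, 7.33 and 7.17 in other cells.

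*Mef2c* (1.43), *Nfe2* (1.29), *Etv6* (1.08) and *Gfi1b* (1.04) were among the other factors past the limit. *Nfe2*, a regulator of platelet release, was expressed in 34 primed and 17 other cells. *Tal1*, a basic helix-loop-helix factor of both the megakaryocyte and the red cell line, was lower at -1.11, and at -0.89 without 1 cell that carried it past the limit. *Gata2* had -0.53 and was expressed in all cells of both classes, *Zfpm1*, the GATA cofactor, had 0.36, and *Gata1* was expressed in 1 and 2 cells. *Nfe2* and *Gfi1b* were at -0.03 and -0.09 when the boundary was moved to a score of 5.

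**Figure D5:**
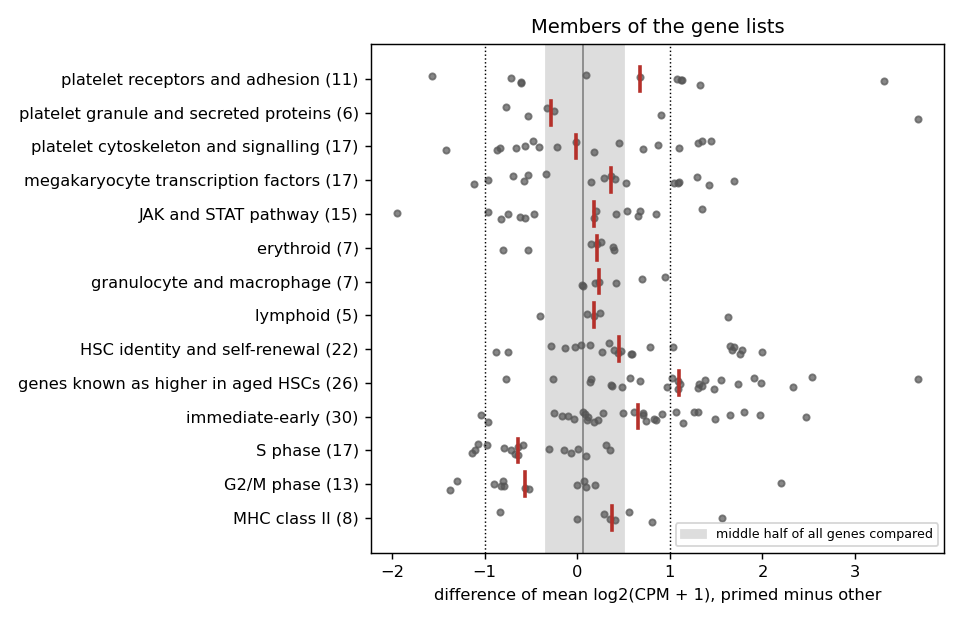
Difference of mean log2(CPM + 1), primed minus other old HSCs, for the members of each gene list that could be compared (number in brackets). Grey points are genes, red bars are list medians, the grey band is the range between the quartiles of all 9064 genes and dotted lines are at -1 and 1; the list of genes known as higher in aged HSCs has the highest median, 1.10.

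The JAK and STAT pathway carries signals of blood cytokines to the nucleus. Of 15 genes of its list that could be compared, 1 was higher and 1 lower, with a median of 0.18. The kinase gene *Pim2* had 1.35, and the adaptor gene *Grb2* had -1.94. The shares, 6.67% each, lay near those of all genes.

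Few genes of the other lineages could be compared. Over all genes 9.62% were higher and 5.52% lower. Of 7 erythroid genes that could be compared, 0 were higher and 0 lower (median 0.22), and of 7 granulocyte and macrophage genes also 0 and 0 (median 0.24). The lymphoid list had 1 of 5 higher, the T cell factor gene *Gata3* at 1.62, which HSCs also express, and a median of 0.18. Of the 3 lists, 14 of 23, 17 of 22 and 15 of 22 members were in the table, and fewer passed the limit of 10% of cells, which bounds what the lists can show.

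In the main setting, genes of HSC identity leaned towards the primed cells. Of 22 compared, 7 (31.8%) were higher and 0 lower, beside 9.62% and 5.52% of all genes, with a median of 0.45. *Procr* (chromosome 2, 155751125 to 155755478), the endothelial protein C receptor that marks HSCs, was expressed in 19 primed cells (51.4%, interval 34.4 to 68.1) and 5 other cells (20.0%, interval 6.83 to 40.7), with a difference of 1.99. Its share was 2 of 13, 3 of 12, 7 of 17 and 12 of 20 at scores of 0 to 2, 3, 4 and 5 or 6.

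*Ly6a*, which encodes the sorted antigen Sca-1, had a difference of 1.78, with 29 and 14 expressing cells. The growth suppressor *Ndn* had 1.75, *Pdzk1ip1* 1.69, the HSC maintenance factor *Mllt3* 1.67, the Polycomb gene *Bmi1* 1.65 and the lipoprotein receptor *Vldlr* 1.03. *Hlf*, a transcription factor of HSCs, had 0.78, and *Cd34*, which long-term HSCs of the mouse lack, had -0.74. Over the alternatives the median of the list lay between 0.11 and 0.71. The number of members higher ranged from 3, after thinning, to 9, with the boundary at a score of 5. Over all genes the share higher was 12.81% after thinning and 13.71% with that boundary. After thinning the higher members were thus not clearly more frequent than among all genes.

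Genes known as higher in aged HSCs had the highest median of the 21 lists. All 26 could be compared, and the median was 1.10. In primed cells 16 (61.5%) were higher and 0 lower, beside 9.62% and 5.52% of all genes. Like the score, this list holds genes that tell old from young HSCs, and *Vwf* and *Gda* stand in it, so it is not independent of how the 6 genes were chosen. Here the comparison is within 1 old mouse, and over the alternatives the median lay between 0.43 and 1.40.

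*Gstm2*, a glutathione transferase, had a difference of 2.33 with 23 and 11 expressing cells. The adhesion molecule *Alcam* had 1.99, the inhibitor of differentiation *Id2* 1.91, *Klhl4* 1.74 and *Tsc22d1* 1.55. *Nupr1*, a stress-induced chromatin protein, had 1.47 and was expressed in 31 and 16 cells. The junction molecule *Jam2* had 1.38, the adaptor *Fyb* 1.35, the metallothionein *Mt1* 1.32 and *Ehd3* 1.30. *Slamf1*, also in the list, had 0.14.

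Immediate-early genes, which respond within minutes to growth factors and also to cell handling, followed. Of 30 compared, 9 (30%) were higher and 1 (3.33%) lower, beside 9.62% and 5.52% of all genes, with a median of 0.66. After *Btg2* came *Ppp1r15a* (1.98), *Nfkbiz* (1.81), *Klf2* (1.65), *Mcl1* (1.49) and *Fos* (1.30), while *Nfkbia* had -1.03. *Fos* was expressed in all 62 cells and was at -0.04 after thinning. *Atf3* (1.06), counted among the 9, was expressed in 8 primed and 0 other cells, so it entered the comparison through primed cells alone. Of the CPM of the primed class 71.5% lay in 1 cell. *Atf3* was at 0.80 without the cell that moved it most, under the limit of 1, and at -0.08 after thinning. The median was 0.22 after thinning and 0.28 with poscounts factors.

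Cycle genes were more often lower than higher. Of 17 S phase genes 0 were higher and 3 (17.6%) lower, with a median of -0.64. Of 13 genes of G2/M phase 1 (7.69%) was higher and 2 (15.4%) lower, with a median of -0.57. The shares over all genes were 9.62% higher and 5.52% lower. The summed CPM of the S phase list had medians of 745 in primed and 1250 in other cells, but that of the G2/M list had 881 and 553, against the direction of its median difference. *Mki67*, the proliferation antigen, was expressed in 7 primed and 7 other cells at mean levels of 1.31 and 2.68, a difference of -1.37 that was 0.77 after thinning. *Smc4* (-1.30), *Cdca7* (-1.13), *Mcm7* (-1.11) and *Slbp* (-1.07) were the other lower members, and the last 3 of them passed the limit only with all cells, standing at -0.86, -0.80 and -0.78 without the 1 cell that moved each most. *Slbp* was at 0.25 after thinning. *Lbr*, a receptor of the nuclear lamina that is not confined to cycling cells, was higher at 2.20. Both medians turned above 0 with the boundary at a score of 5 and after thinning.

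The invariant chain gene *Cd74* was higher at 1.57, with 27 and 10 expressing cells. It was the only one of 8 MHC class II genes past the limit (12.5%, beside 9.62% of all genes), and their median was 0.38. With the boundary at a score of 3 *Cd74* was at -0.07. Of the sex-linked genes, *Eif2s3y* had 1.65 and *Xist* -0.04.

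Transcripts of other cell types were few and are given for the whole of each list. Of 12 endothelial markers 8 were in the table and 3 could be compared, with *Tie1* at 1.29 (16 and 4 expressing cells), *Emcn* at 0.82 (6 and 1) and *Egfl7* at -0.10, all of them known in HSCs too. At least 1 of these markers was expressed in 27 primed and 12 other cells, and the summed CPM had medians of 44.1 and 2.32, with ranges from 0 to 1683 and from 0 to 528. *Kdr*, which defines endothelium, was above the limit in 2 primed and 0 other cells. The part of endothelial RNA in the *Vwf* difference was not tested beyond these values.

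Markers of mature platelets, which could adhere to a sorted cell, were in the table for 7 of 9 members, and their summed CPM had medians of 10.9 in primed and 0.761 in other cells, with ranges from 0 to 2987 and from 0 to 664. At least 1 was expressed in 23 primed and 10 other cells. The list had 2 members that could be compared, *Gp9* and *Pf4* given above, 1 of them past the limit of 1, with a median difference of 0.99. *Ppbp* and *Gp1bb*, which are abundant in platelets, were each expressed in 1 primed and 1 other cell, and *Gp5* in 3 and 0. The part of platelet RNA in the differences was not tested. Of B cell markers, 4 of 8 in the table, *Cd79b* was lower at -1.17, and *Fcer2a* was above the limit in 36 and 25 cells at an even level of 3.71 and 3.61. Of T and NK cell markers, 4 of 8 in the table, *Nkg7* was lower at -1.41. For macrophages and dendritic cells, 6 of 11 in the table, at least 1 was expressed in 33 and 20 cells, mostly *Cd163* (32 and 20), and *C1qa* and *C1qc* were above the limit in 0 of 62 cells. For stromal cells, 5 of 8 in the table, *Cxcl12* and *Col1a1* were above the limit in 0 cells, while *Lepr* was expressed in all 62. The summed CPM of these 4 lists had medians of 19.6 and 24.8, 2.17 and 4.52, 13.7 and 10.6, and 47 and 61.6 in primed and other cells.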

How the data were processed

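Single-cell libraries (C1 capture, whole-transcript cDNA) were sequenced as single 51 bp reads. According to the study's methods and the submitters' processing notes, the authors mapped reads to mm10 with TopHat2 2.0.10 and counted them on RefSeq genes with rpkmforgenes. The deposited values are unnormalized counts of 15181 genes in 135 cells. Use of strand is not stated, and overlapping genes or close copies may share reads.

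The 12 old cells under the study's limits (500000 mapped reads, at most 10% mitochondrial reads, 3000 genes) were left out by name. The members, lists and settings were chosen with earlier results of these data known. CPM used each cell's total count and a pseudocount of 1. Genes are named if they are in the score, are among 8 megakaryocyte genes, are among the 15 largest or 15 smallest differences, are among the 6 largest of a list, or are absent markers. Some genes the rule covers are not reported here. Further genes named for context were chosen after their values were seen. No test was made. Alternatives changed the score, limit, pseudocount, scaling (edgeR 4.0.16, DESeq2 1.42.0 factors), filter, cells and strata. The steps were tested on simulated data. Software was R 4.3.3 and Python 3.11.15 with numpy 2.4.6, pandas 2.3.3 and scipy 1.17.1.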

Additional observations from a re-analysis of the deposited data

Results flagged for a closer look

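Of the 12 old cells that the study's limits leave out, 5 passed the platelet score (41.7%, interval 15.2 to 72.3). This share was looked at because these cells lie outside the main comparison, and its interval holds values well under and over the share in the 62 cells. They enter only the alternative with all 74 old cells. *Vwf* was expressed in 4 of the 5 and in 3 of the 7 others. *Itga6* had mean levels of 4.99 in the 5 and 3.75 in the 7, and *Procr* 3.17 and 1.40. *Fli1* went the other way, with 6.93 and 8.32. Of the 15 genes with the largest differences among the 62 cells, 10 were above 0 in this small set (median 0.85), and of the 15 with the smallest differences 10 were also above 0 (median 0.19), beside a median of 0.10 over all genes. Thus 10 of the higher and 5 of the lower genes had the same sign here as in the 62 cells. *Herc6* was expressed in 3 of 5 and 1 of 7 of these cells.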

How the results depend on the processing

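Values were recomputed under up to 21 settings and with each cell left out in turn, and of 2515 values 1882 stayed near the main value, 573 moved and 60 turned their sign from a difference of at least 1 or a median of at least 0.25 in size. A further 43 values turned from smaller ones. Some values could not move. Leaving *Sdpr* out of the score gave the same classes, and dropping the filter leaves the difference of each gene as it was. The differences of named genes under both settings are counted among the 1882, so that count overstates how stable the values were. Of 89 differences of named genes, 64 kept one sign throughout, among them *Vwf* (2.35 to 4.61), *Itga6* (1.65 to 4.09), *Fli1* (1.08 to 1.94), *Procr* (1.59 to 2.93) and *Herc6* (-4.38 to -1.77). The share of primed cells was 74.2% with a limit of 1 and 90.3% with at least 1 read. Genes higher in primed cells numbered 1500 with a pseudocount of 0.1 CPM and 1860 by the ratio of mean CPM. Genes lower numbered 1013 and 1552 under these, 1015 and 328 with the boundary at a score of 3 and 5, 816, 756 and 751 with *Clu*, *Selp* or *Tgm2* left out of the score, 763 with poscounts factors, 267 with all 74 old cells, 755 without cells expressing a cycle gene and 989 within strata by genes expressed. Leaving out 1 cell at a time gave 823 to 948 higher and 460 to 570 lower genes. Of the 4 megakaryocyte and platelet lists, 9 members were higher without *Selp* and 9 without *Tgm2* in the score, 10 with poscounts factors, 10 with all 74 cells, 8 by the ratio and 8 within strata.

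These signs turned from values past those sizes. With the boundary at 3, *Casp12* was at -0.39, *Cd74* -0.068, *F2rl3* -0.42, *Itgb1* 0.38, *Nfkbia* 0.32, *Pla2g4a* -0.66, *Slbp* 0.90, *Tbxas1* 0.45 and *Tln1* -0.86, and the MHC class II median was -0.020. With the boundary at 5, *Cdca7* was at 0.25, *Gfi1b* -0.092, *Nfe2* -0.030, *Smc4* 0.33 and *Tsc22d1* -0.25, and the medians were 0.062 for G2/M, 0.079 for S phase and 0.22 for granule proteins. Without *Clu* in the score, *Casp12* was at -0.33, *Gp9* -0.20, *Itgb1* 0.17, *Pla2g4a* -0.61, *Slbp* 1.27, *Tbxas1* 0.34 and *Tln1* -0.46. Without *Fhl1*, *Cd74* was at -0.34, *Nfkbia* 0.11, *Smc4* 0.11 and MHC class II -0.22. Without *Tgm2*, *Casp12* was at -0.057, *Slbp* 0.46, *Tbxas1* 0.037 and MHC class II -0.11. *Slbp* was at 0.027 without *Itgb3*, and *Aldh1a1* at -0.48 without *Selp*. After thinning, *Aldh1a1* was at -0.052, *Atf3* -0.078, *F2rl3* -0.37, *Fos* -0.040, *Gp9* -0.31, *Mki67* 0.77, *Slbp* 0.25 and *Zfp36* -0.041, with medians of 0.33 for G2/M, 0.0018 for S phase, -0.13 for MHC class II and -0.24 for platelet receptors. By the ratio of mean CPM, *Aldh1a1* was at -0.033, *Cd74* -0.29, *F2rl3* -0.93, *Mylk* -0.45 and *Oxr1* -0.23, with medians of -0.076 for MHC class II, 0.48 for granule proteins and -0.069 for platelet receptors. The granule median was 0.034 with a limit of 3 and 0.011 with no filter. The MHC class II median was -0.054 within strata by genes expressed, -0.0030 within strata by total count and -0.0013 without cycle gene cells. Of the smaller values, *Itga2b* ranged from -1.12 to 1.37, *Gata2* from -0.77 to 0.11 and *Zfpm1* from -0.090 to 1.23, and the medians ranged from -0.40 to 0.46 for the JAK and STAT list, -0.39 to 0.37 for erythroid, -0.15 to 0.69 for lymphoid, -0.34 to 0.23 for platelet cytoskeleton and -0.023 to 0.37 for the 4 megakaryocyte and platelet lists. The causes were not tested.

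The strata by total count were added after the data had been seen. After thinning, 1 read in 250000 already passes the limit for an expressing cell, and 43 cells were primed. No paired analysis was possible because the labels name capture wells, which pair no cells, and no test was made.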

Other observations

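Some gene families were examined after the values of the named genes had been seen. Of 72 nuclear genes of the respiratory chain, 6 (8.33%) were higher and 11 (15.3%) lower in primed cells, beside 9.62% and 5.52% of all genes, with a median of 0.13, and *Ndufb8* was among the 15 smallest differences. Their summed CPM had a median of 9054 in primed and 9189 in other cells. Of 74 cytosolic ribosomal protein genes 0 were higher and 0 lower, with a median of 0.08 and 48 of them above 0. Of 39 proteasome subunit genes 3 (7.69%) were higher and 4 (10.3%) lower, with a median of -0.03. In young cells, *Vwf* was expressed in 25 of 47 with a score of 0 to 2 and in all 5 with a score of 3 or 4, and those 5 are too few to describe a class. *Itga6* did not rise with the score there, with mean levels of 3.76 at 0, 3.32 at 1 and 2.77 at 2 to 4.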
